A study of Mus musculus with 8 samples.

Results

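RNA of whole vomeronasal epithelium was compared between 4 libraries of flushed tissue, each from 1 mouse, and 4 libraries of non-flushed tissue, each a pool of 2 mice. The members were chosen by the descriptions in the labels, and they make up all 8 libraries of the series. Every mouse was a C57BL/6J animal aged 8 weeks, with no transgene or drug named, and each preparation held 2 female and 2 male libraries. The groups were therefore male pools 1 and 2, female pools 1 and 2, flushed females 2 and 3, and flushed males 1 and 3. Flushing passes a solution through the vessels to wash out blood. The common protocol text of the labels states a heparin flush for all mice, at odds with the word non-flushed in 4 descriptions, and samples were grouped by description. A pool averages 2 animals and a single library does not. The alignment paths in the file headers carry one date and one lane for all 4 pools, and another date and lane for all 4 flushed libraries. Flushing, pooling, date and lane therefore cannot be told apart, and each difference below is one between 2 preparations. The hour of tissue collection is not given in the sources used here.

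The vomeronasal organ is a paired tube in the nasal septum, encased in cartilage and bone, with which mice detect pheromones. Its sensory neurons lie in an apical layer, which uses Vmn1r receptors and the G protein subunit Gnai2, and a basal layer, which uses Vmn2r receptors and Gnao1. A large vessel and glands lie beside the sensory lining, so that a dissected organ also holds blood, vessel, gland, bone and cartilage RNA. In such bulk tissue, fewer cells of a type and less RNA per cell cannot be told apart. The labelled tissue was borne out by its markers: Omp, the marker of mature chemosensory neurons, had between 7024 and 10324 counts in each library, Gnai2 between 3331 and 4418, and Gnao1 between 995 and 1353. Trpc2, the transduction channel of these neurons, was counted at 0 in all 8 libraries, while the overlapping gene model Xntrpc had 416 to 692 counts. Reads that overlapped more than 1 gene had been left out by the counting. Each pool held between 18763557 and 22096792 counts and each flushed library between 22101913 and 24965088. The most abundant transcript of a library was Obp2a, Obp2b or Dmbt1, gland products, with 4.34 to 6.10% of its counts.

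Differences between the preparations were many and mostly small. Of 20601 genes tested with edgeR's quasi-likelihood test adjusted for gender, 9377 (45.5%) passed a Benjamini-Hochberg adjusted p of 0.05. In flushed single mice 4656 genes (22.6%) were higher and 4721 (22.9%) lower, and these shares are the background for each count below. With library totals in place of TMM scaling the split was 6070 higher and 2862 lower, and the median difference of all genes moved from -0.02 to 0.10 on the log2 scale. The median size of a called difference was 0.47 (log2). A fold above 2 was seen in 732 called genes that were higher and in 428 that were lower. Tested against a fold of 1.5, 538 genes were higher (2.61%) and 223 lower (1.08%). In 8585 of the tested genes (41.7%) the 4 libraries of one preparation did not overlap the 4 of the other. All log2 differences below are flushed minus pool, and levels are in CPM, counts scaled to 1000000 per library after TMM. Levels in all libraries are given in the order male pool 1, male pool 2, female pool 1, female pool 2, and then flushed female 2, flushed female 3, flushed male 1, flushed male 3.

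The differences followed the base composition of the transcripts. Genes with few G and C bases in their exons were higher in flushed single mice and genes with many were lower. Short coding stretches of 4 genes, 2 from each end of this range, show the contrast. All are the first bases of the gene's longest coding exon part in GRCm38, written with G and C in capitals. Zfp943 encodes a zinc finger protein (chr17:21992092-21992211, plus strand) and Vmn2r88 a basal-layer pheromone receptor (chr14:51417975-51418094, plus strand). Hist2h3c2 encodes a histone H3 (chr3:96238822-96238941, minus strand) and Col11a2 a collagen chain of cartilage (chr17:34064024-34064143, plus strand).
Zfp943: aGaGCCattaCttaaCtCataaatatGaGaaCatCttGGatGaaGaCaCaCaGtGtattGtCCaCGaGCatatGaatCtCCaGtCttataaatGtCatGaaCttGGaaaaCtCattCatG
Vmn2r88: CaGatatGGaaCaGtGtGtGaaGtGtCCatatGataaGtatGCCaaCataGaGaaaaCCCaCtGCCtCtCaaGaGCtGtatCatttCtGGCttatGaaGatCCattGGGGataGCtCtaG
Hist2h3c2: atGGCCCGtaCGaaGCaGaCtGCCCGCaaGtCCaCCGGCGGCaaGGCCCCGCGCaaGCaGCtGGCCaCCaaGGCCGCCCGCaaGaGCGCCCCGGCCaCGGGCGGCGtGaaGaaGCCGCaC
Col11a2: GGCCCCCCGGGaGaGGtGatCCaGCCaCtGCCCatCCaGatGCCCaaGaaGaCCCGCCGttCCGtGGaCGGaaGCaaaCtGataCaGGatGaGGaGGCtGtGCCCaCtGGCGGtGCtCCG
These stretches of 120 bases hold 35.8, 42.5, 73.3 and 65.0% G and C, against 35.7, 40.1, 60.2 and 61.8% over all exons of the same genes.

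Zfp943 stood at 8.41, 7.18, 6.84 and 8.203 CPM in the pools and at 20.4, 19.9, 21.9 and 17.3 CPM in the flushed libraries. Vmn2r88 stood at 53.3, 51.2, 47.8 and 50.1 CPM in the pools and at 142, 125, 146 and 111 CPM in the flushed libraries. Both genes were separated between the preparations in every library, by 2.60-fold (log2 1.38, SE 0.11, edgeR adjusted p = 2.2e-05) and 2.59-fold (log2 1.37, SE 0.09, edgeR adjusted p = 1.4e-05). Hist2h3c2 went the other way, from 15.5, 15.3, 14.7 and 13.7 CPM in the pools to 7.31, 7.46, 9.29 and 8.28 CPM. Col11a2 had 519, 567, 499.9 and 556 CPM in the pools and 207, 240.3, 247 and 158 CPM in the flushed libraries. The flushed levels of these 2 genes were lower, by 1.84-fold (log2 -0.88, SE 0.08, edgeR adjusted p = 4.1e-05) and 2.51-fold (log2 -1.33, SE 0.13, edgeR adjusted p = 4.9e-05). With a smooth of GC content removed from each library, these differences became 0.52, 0.88, -0.44 and -0.85, all past the threshold.

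Over 5 bins of equal gene number, the median log2 difference went from 0.51 at 28.65 to 42.9% GC through 0.16, -0.03 and -0.20 to -0.36 at 54.6 to 76.3% GC. In the lowest bin 65.5% of genes were higher and 1.32% lower, and in the highest bin 0.855% were higher and 55.7% lower. The rank correlation between exonic GC and the difference was -0.69 over 20476 genes (Pearson -0.56), given as a description, since all genes share the same 8 libraries and GC goes with gene class. Among abundant genes (mean log2 CPM at least 5) the rank correlation was -0.79 (n = 5712 genes). The shift was present in each library. Relative to the mean of all libraries, the median of the lowest bin was -0.19, -0.24, -0.19 and -0.28 in the pools and 0.24, 0.23, 0.24 and 0.18 in the flushed libraries. The highest bin gave 0.12, 0.18, 0.10 and 0.26 in the pools and -0.16, -0.18, -0.17 and -0.16 in the flushed libraries. No library of one preparation reached the range of the other in either bin. The mean GC content of genes weighted by counts was 49.98 ± 0.235% in the pools and 48.69 ± 0.0645% in flushed single mice (SD, n = 4 each, exact two-sided permutation p = 0.02857, the smallest that 70 assignments allow, and 0.04643 after adjustment over 26 such quantities).

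Exon length also went with the difference. Over 5 bins from the shortest to the longest genes the medians were -0.13, -0.10, -0.05, -0.01 and 0.12, with a rank correlation of 0.17 over all tested genes, 0.32 over protein-coding genes and 0.37 over abundant genes. Within each length bin the GC order remained: the lowest GC bin had medians from 0.44 to 0.61 and the highest from -0.47 to -0.27. The length order did not hold within every GC bin. From the shortest to the longest genes, the medians of the lowest GC bin were 0.61, 0.59, 0.50, 0.44 and 0.48. Those of the highest GC bin rose from -0.47 to -0.27. With the GC smooth the medians of the 5 GC bins lay between 0.003 and 0.017, and those of the length bins between -0.05 and 0.05. Under that setting 4474 genes (21.7%) passed, of which 1639 had also been called higher and 1337 called lower without it. A further 210 passed in the opposite direction and 1288 were newly called. A length smooth alone left 9176 genes (44.5%). The smooth takes out any difference that runs with GC, whether it arose in the library or in the tissue, and which of these it was cannot be told apart here. The counts of gene groups below are therefore given with and without it.

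**Figure D1:**
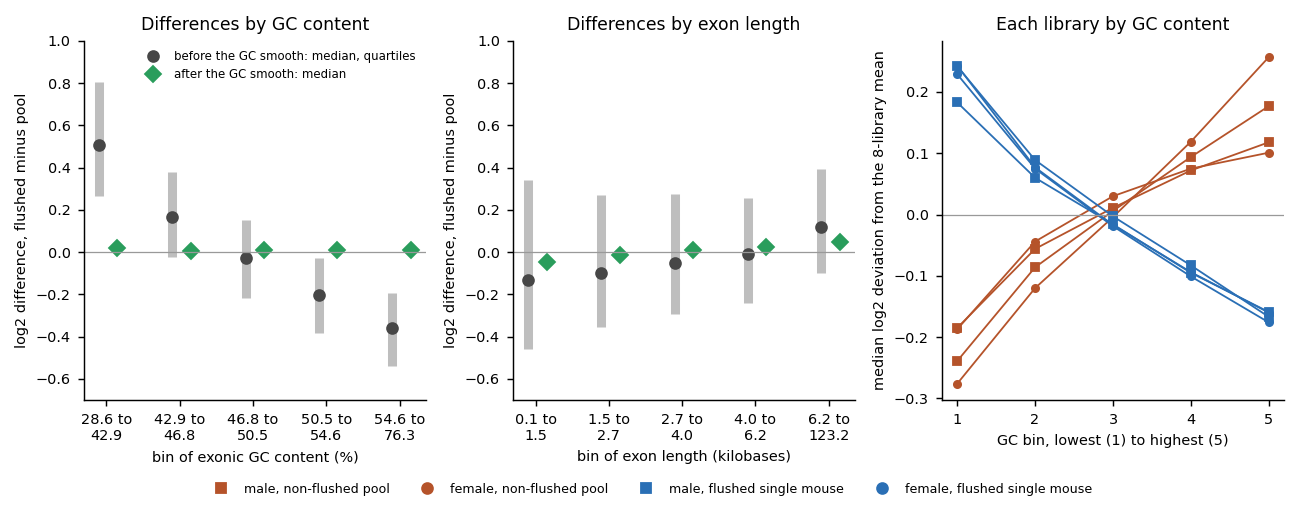
Median log2 difference, flushed single mice minus non-flushed pools, over bins of exonic GC content (left) and exon length (middle, kilobases), and the median log2 deviation of each library from the mean of all libraries over the GC bins (right). Bars are quartiles over genes. Genes in the lowest bin sat at 0.51 and those in the highest at -0.36, and with the GC smooth all bin medians were between 0.003 and 0.017.

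Pheromone receptor genes were higher in flushed single mice, while other neuronal genes moved in both directions. Of 149 Vmn2r genes tested (of 224 in the files), 123 were higher and none lower, with a median of 0.93. Of 141 Vmn1r genes tested (of 342), 92 were higher and none lower, with a median of 0.75. These are GC-poor families, with median exonic GC of 38.7 and 39.2% against 48.6% over all tested genes. With the GC smooth 72 Vmn2r genes were higher and 2 lower (median 0.36), and 27 Vmn1r genes were higher and 2 lower (median 0.18). The background under that smooth was 11.3% higher and 10.5% lower. Vmn2r6 (highest of its family per exon length) rose from 62.4 to 67.2 CPM across the pools to 109 to 128 CPM in flushed single mice (1.85-fold, edgeR adjusted p = 1.8e-05), and with the smooth its log2 difference went from 0.89 to 0.40 (adjusted p = 0.0029). Formyl peptide receptors, also used by some vomeronasal neurons, were higher in 4 of 7 genes with and without the smooth. Near-identical receptor genes share reads, and single members are uncertain for that reason.

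Of 13 genes shared by vomeronasal neurons, 4 were higher and 3 lower, with a median of -0.16 that became 0.03 with the GC smooth. Omp had 379.6, 443.6, 361 and 484 CPM in the pools and 373, 377, 409 and 341 CPM in flushed single mice. The ranges overlapped, and its difference of -0.15 missed the threshold (edgeR adjusted p = 0.23). Snap25, a protein of synaptic release, was 42.4 to 54.6 CPM in the pools and 62.5 to 73.8 CPM in flushed single mice (1.42-fold higher, edgeR adjusted p = 0.00093). Its exons hold few G and C bases, and with the smooth its difference was -0.06 (adjusted p = 0.65). Ebf2, a transcription factor of these neurons, kept its difference: it was 1.23-fold higher (51.9 to 58.5 against 66.0 to 72.7 CPM, edgeR adjusted p = 0.0021), and 0.31 on the log2 scale with the smooth. The count of lower genes in this list was 0 without male pool 2, and 1 without either female pool 2 or flushed female 2. Gnai2 was 1.28-fold lower (edgeR adjusted p = 0.01), and at -0.05 with the smooth (adjusted p = 0.72). The lists of 7 apical and 7 basal neuron genes had 1 higher and 2 lower members each, and with the smooth none higher and 2 and 3 lower.

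Among 12 genes of immature neurons, 3 were higher and 4 lower, and 2 and 3 with the GC smooth. Dcx, a microtubule protein of young neurons, stood at 12.4, 10.6, 13.5 and 11.4 CPM in the pools and at 27.2, 22.5, 19.4 and 21.6 CPM in flushed single mice. Marcksl1, an actin-binding protein of growing neurites, had 27.9, 32.3, 31.5 and 39.7 CPM in the pools and 18.2, 17.2, 21.2 and 18.3 CPM in flushed single mice. So 2 markers of the same stage were separated in every library and in opposite directions, Dcx by 1.89-fold higher (edgeR adjusted p = 8.8e-05) and Marcksl1 by 1.75-fold lower (edgeR adjusted p = 0.00031). Both also passed with the GC smooth, at 0.38 and -0.41. Tubb3, a neuronal tubulin, was 1.33-fold lower (edgeR adjusted p = 0.0047) but at -0.02 with the smooth.

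Glial genes were split likewise. Of 11 genes of ensheathing glia, which wrap the vomeronasal axons, 2 were higher and 5 lower, and with the GC smooth none was higher and 2 were lower. Gfap, the intermediate filament of glia, fell from 5.14 to 6.43 CPM to 2.74 to 4.21 CPM (1.75-fold, edgeR adjusted p = 0.0025) and stayed past the threshold with the smooth (-0.60, adjusted p = 0.026). Apoe, a lipid carrier, was 1.5-fold lower (edgeR adjusted p = 0.001), with -0.21 and adjusted p = 0.092 under the smooth.

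**Figure D2:**
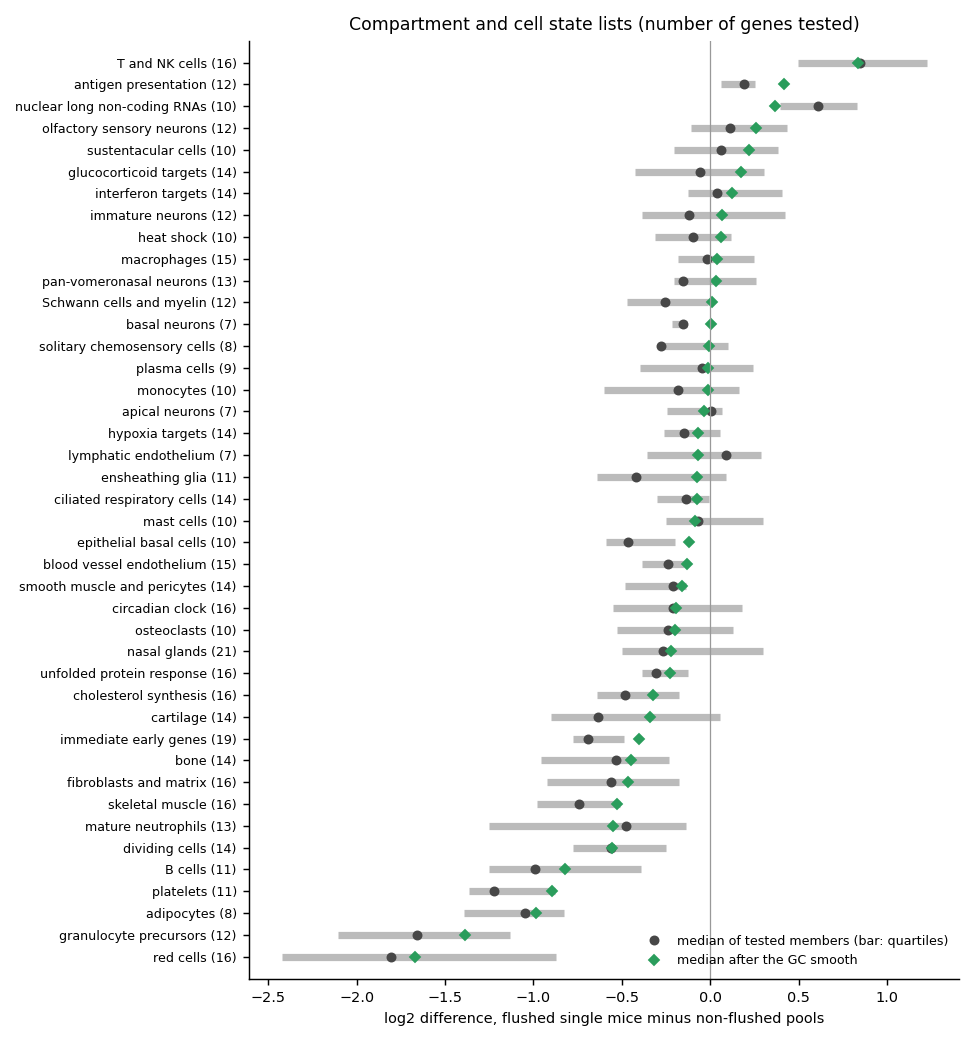
Median log2 difference, flushed single mice minus non-flushed pools, of each compartment and cell state list (points, with bars for the quartiles) without and with the GC smooth. Cornified epithelium, whose median rests on 1 pool, is left out. Red cell and granulocyte precursor lists sat lowest with and without the smooth, at -1.80 and -1.66 without it, and T and natural killer cells highest without it, at 0.84.

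Red cell genes had the lowest list median of the compartments apart from cornified epithelium. Of 16 tested, 15 were lower and none higher (median -1.80), and 13 were lower with the GC smooth (median -1.67). Slc4a1, the anion exchanger of the red cell membrane (chromosome 11), had 47.8, 32.4, 24.6 and 20.8 CPM in the pools, and 1.85, 3.13, 18.9 and 12.3 CPM in flushed single mice. Every pool exceeded every flushed library, by 4.31-fold in the fit (log2 -2.11, SE 0.34, edgeR adjusted p = 0.00072). Hbb-bs, a beta globin, had 632, 749.5, 578 and 614 CPM in the pools and 41.1, 37.8, 202 and 196 CPM in flushed single mice. The paired globin genes are nearly identical in sequence, and counts of each member are uncertain. Flushed females were lower than flushed males in both genes. The preparation effect differed between genders in Hbb-bs (interaction 2.125, edgeR adjusted p = 0.00064), while the interaction of Slc4a1, 1.815, missed the threshold (edgeR adjusted p = 0.74). The median of the list was -2.72 in females and -1.13 in males, a difference that was not itself tested.

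Granulocyte genes were lower too. Of 12 genes made in granulocyte precursors, 11 were lower and none higher (median -1.66), and 6 were lower with the GC smooth. In females alone all 12 were lower, and in males alone none passed (median -2.77 and -0.95). Over all 20601 tested genes, 2601 were lower in females alone and 2278 in males alone. None of the 12 was among the 10 genes whose preparation effect differed between genders in the interaction test, so a gender difference was not shown for them. Camp, the antimicrobial cathelicidin, had 30.5, 29.9, 34.4 and 29.9 CPM in the pools and 3.15, 1.21, 17.8 and 4.95 CPM in flushed single mice. Flushed male 1 thus kept the highest level of the flushed group, and the fit gave a 5.44-fold lower level (log2 -2.44, SE 0.52, edgeR adjusted p = 0.0034). S100a9, an alarmin of neutrophils, had 87.0, 121, 149.7 and 109 CPM in the pools and 18.4, 14.3, 67.8 and 19.4 CPM in flushed single mice (4.25-fold lower, log2 -2.09, edgeR adjusted p = 0.0028). Without flushed male 1 the log2 differences were -3.34 for Camp and -2.76 for S100a9. The count of lower granulocyte genes was 5 without flushed female 2 and 7 without either male pool 1 or flushed female 3. The sum of the list without Ltf, a gene that nasal glands express strongly, was 105 to 209 CPM in the pools and 26.4 to 100.1 CPM in flushed single mice.

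Platelet genes were lower in 7 of 11 (median -1.22), and in 2 with the GC smooth. The count was 2 without flushed female 2, 3 without either female pool 2 or flushed female 3, and 4 without flushed male 3. Itga2b, the platelet fibrinogen receptor, went from 9.86 to 13.2 CPM in the pools to 2.48 to 8.36 CPM (2.36-fold lower, edgeR adjusted p = 0.0036). Ppbp, a platelet chemokine, passed narrowly (3.74-fold lower, edgeR adjusted p = 0.044), and its adjusted p lay between 0.052 and 0.14 without any one of female pool 2, flushed female 2, flushed female 3 or flushed male 3. Of 13 mature neutrophil genes 5 were lower, 3 with the GC smooth, and 2 or 3 without any 1 library other than male pool 1 and flushed male 1. One of these, Mmp9, is a matrix protease that osteoclasts also make. It went from 204 to 232 CPM in the pools to 116 to 141 CPM (1.73-fold lower, edgeR adjusted p = 2.3e-05).

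**Figure D3:**
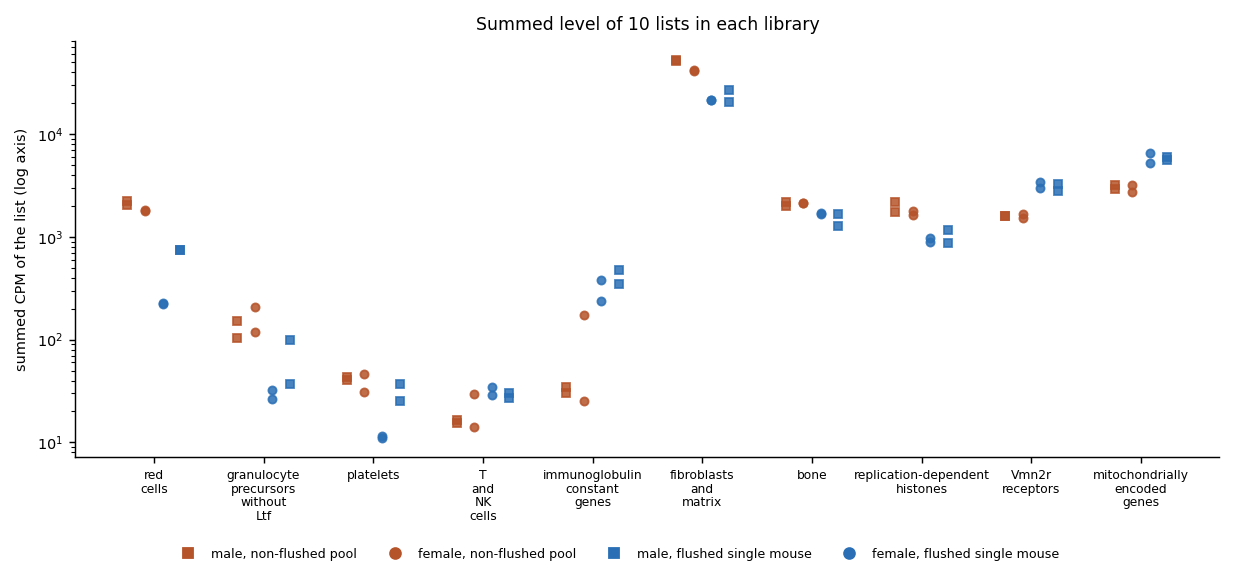
Summed CPM of gene lists in each of the 8 libraries (log axis), with squares for males and circles for females. Red cell genes summed to 1800 to 2237 CPM in the pools, to 220.2 and 227.5 CPM in flushed females, and to 744 and 750.1 CPM in flushed males, while Vmn2r genes summed to 1535 to 1678 CPM in the pools and 2827 to 3442 CPM in flushed single mice.

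Lymphoid genes divided. Antibody genes were higher in flushed single mice. Of 54 immunoglobulin variable genes tested (of 348 in the files) 29 were higher, as were 5 of 10 constant genes. With the GC smooth these were 25 and 5. The expression filter works on groups of 2 libraries, so genes scarce in the pools could enter through flushed libraries alone. That none was lower is therefore no support. All variable genes summed to 12.2, 8.9, 90.05 and 5.42 CPM in the pools and 117.6 to 245.5 CPM in flushed single mice. Igkc, the kappa constant region (chromosome 6), had 4.97, 4.19, 41.4 and 2.50 CPM in the pools and 75.7, 62.2, 98.6 and 85.2 CPM in flushed single mice. Jchain, which joins IgA and IgM into polymers, had 4.11, 3.27, 31.8 and 1.99 CPM in the pools and 82.9, 53.2, 113 and 91.6 CPM in flushed single mice. Female pool 1 stood apart from the other pools in both genes yet below every flushed library. The differences were 6.74-fold and 8.78-fold (log2 2.75 and 3.13, edgeR adjusted p = 0.0084 and 0.0044), and both passed without each library in turn. Their size rested on that pool: without it they were 4.45 and 4.86 on the log2 scale. Of 9 plasma cell genes outside the antibody loci, 2 were higher and 4 lower, and 2 and 1 with the smooth. Marker genes of B cells were lower instead, in 6 of 11. Cd79a, a B cell receptor chain, had 0.690 to 1.15 CPM in the pools and 0.315 to 0.674 CPM (2.16-fold lower, edgeR adjusted p = 0.013). None of the 6 passed with the GC smooth, and the count was 2 or 3 without any 1 library other than flushed male 1. The one B cell gene that was higher, Ebf1, is also a gene of vomeronasal neurons and was named after its values were seen.

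T and natural killer cell genes were higher in 8 of 16 and lower in none, with a median of 0.84 and 0.83 with the GC smooth. Cd8a, the coreceptor of cytotoxic T cells, had 0.162, 0.230, 0.399 and 0.153 CPM in the pools and 2.27, 1.88, 0.872 and 0.990 CPM in flushed single mice. The 4 pools lay below the 4 flushed libraries (6.10-fold, log2 2.61, SE 0.31, edgeR adjusted p = 0.00015). A gene this scarce in the pools could enter the test through flushed libraries alone. Lck, a kinase of the T cell receptor, was 2.01-fold higher (edgeR adjusted p = 0.0025). Cxcr3, a chemokine receptor of activated T cells, was 0.562 to 0.861 CPM in the pools and 1.57 to 2.82 CPM in flushed single mice (3.13-fold, edgeR adjusted p = 0.00056). The sum of the list was 14.2 to 29.4 CPM in the pools, highest in female pool 1, and 27.2 to 34.7 CPM in flushed single mice, so the sums overlapped.

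Genes of antigen presentation were higher in 3 of 12, near the 22.6% of all tested genes. With the GC smooth 7 were higher, against 11.3% of all tested genes. The count was 5 without female pool 1 and 2 without flushed female 2. H2-Aa, an MHC class II chain (chromosome 17), had 95.2, 99.7, 133 and 121 CPM in the pools and 186, 161, 150.1 and 150.6 CPM in flushed single mice. All 4 flushed libraries exceeded the pools (1.45-fold, log2 0.54, SE 0.07, edgeR adjusted p = 0.00021). Cd74, the class II chaperone, was 1.19-fold higher (edgeR adjusted p = 0.014), with overlapping ranges, and lost its call without flushed female 2 (adjusted p = 0.063). Macrophage genes moved in both directions, 4 higher and 2 lower of 15 (3 and 0 with the GC smooth), and the median of -0.02 became 0.10 with library totals. Csf1r, the growth factor receptor of macrophages, was 1.17-fold lower (edgeR adjusted p = 0.0043) and at 0.04 with the GC smooth (adjusted p = 0.63). Of 14 interferon targets 3 were higher and 1 lower, and 2 and 1 with the smooth. Ifi44, an interferon-induced protein, rose from 6.26 to 8.46 CPM in the pools to 12.5 to 18.9 CPM (2.09-fold, edgeR adjusted p = 0.00013).

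Connective tissue genes were mostly lower in flushed single mice. Of 16 fibroblast and matrix genes, 10 were lower and 2 higher, and with the GC smooth 11 were lower and 1 higher. Col5a1, a chain of fibrillar collagen, had 1116, 1157, 822 and 941 CPM in the pools and 435, 394, 488 and 421 CPM in flushed single mice. The pools were 2.31-fold above the flushed libraries with no overlap (log2 -1.21, SE 0.08, edgeR adjusted p = 1.4e-05). Col3a1, the collagen of elastic connective tissue, has 44.5% exonic GC, and its difference of -1.06 became -1.25 with the smooth. Serpinh1, the chaperone of collagen folding, was 472 to 488 CPM in the pools and 236 to 318 CPM in flushed single mice (1.74-fold lower, edgeR adjusted p = 8.2e-05). All 44 collagen genes were tested, and 31 were lower and none higher, 24 and 0 with the smooth. Collagens took 4.59 ± 0.351% of counts in the pools and 2.36 ± 0.269% in flushed single mice (SD, n = 4, exact permutation p = 0.02857, adjusted 0.04643).

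Bone and cartilage genes followed. Of 14 bone genes 10 were lower and none higher, and 9 with the GC smooth. Alpl, the alkaline phosphatase of mineralising cells (chromosome 4), had 149.8, 155, 161 and 175 CPM in the pools and 82.9, 85.4, 83.5 and 73.5 CPM in flushed single mice. Bglap2, an osteocalcin gene, had 115, 117, 143 and 138 CPM in the pools and 65.9, 82.9, 76.3 and 46.6 CPM in flushed single mice. Neither gene overlapped between preparations, and the differences were 1.97-fold and 1.89-fold (edgeR adjusted p = 1.4e-05 and 0.00038). Of 14 cartilage genes 8 were lower and 1 higher, 4 and 1 with the smooth. Col11a1 was 2.08-fold lower (371 to 448 against 172 to 226 CPM, edgeR adjusted p = 2.7e-05). The higher one was Hapln1, a link protein of cartilage and perineuronal matrix, at 5.21 to 6.07 CPM in the pools and 9.85 to 10.8 CPM (1.88-fold, edgeR adjusted p = 7e-05). Of 10 osteoclast genes 4 were lower and 1 higher, with and without the smooth. Acp5, the phosphatase of osteoclasts, fell by 1.58-fold (edgeR adjusted p = 0.00028), and the one higher gene, Tnfrsf11a, the receptor that drives their formation, rose by 1.36-fold (edgeR adjusted p = 0.00087).

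Of 15 genes of blood vessel endothelium 8 were lower and none higher (median -0.24), and 3 with the GC smooth. Tie1, an endothelial receptor, was 24.2 to 24.9 CPM in the pools and 15.4 to 17.7 CPM in flushed single mice (1.47-fold lower, edgeR adjusted p = 0.00017). With the smooth its difference was -0.20 (adjusted p = 0.066). Cldn5, the tight junction protein of endothelium, was 1.36-fold lower (edgeR adjusted p = 0.0043) and at 0.01 with the smooth. Of 14 genes of smooth muscle and pericytes 5 were lower and 1 higher, and 3 each with the smooth. Kcnj8, a potassium channel of pericytes, was 5.49 to 7.08 CPM in the pools and 3.32 to 3.72 CPM (1.87-fold lower, edgeR adjusted p = 0.00031), and it passed with the smooth (-0.66, adjusted p = 0.0053). Of 8 adipocyte genes 3 were lower with and without the smooth, among them Fabp4, a fatty acid carrier (4.87 to 6.44 against 1.92 to 3.58 CPM, 2.10-fold lower, edgeR adjusted p = 0.0029).

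Genes of skeletal muscle and cornified epithelium rested on single libraries. Of 16 muscle genes 3 were lower, 1 with the GC smooth, 11 without flushed male 1, and 1 without either male pool, female pool 2 or flushed male 3. Their sum was 59.3 to 108 CPM in the pools, 104 CPM in flushed male 1 and at most 49.0 CPM in its flushed counterparts. Krt10, a keratin of cornified skin, had 60.8 CPM in male pool 1 and at most 1.78 CPM in any other library, and its call (edgeR adjusted p = 0.018) was lost without that pool (adjusted p = 0.06), and without either flushed male 1 or flushed male 3 (adjusted p = 0.089 and 0.099). Most of the cornified signal of the pools was therefore 1 library's, and the summed list was 222 CPM there and at most 6.34 CPM elsewhere. The list median of -3.30 was -0.62 without male pool 1.

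Of 14 genes of dividing cells 7 were lower and none higher (median -0.56), and 9 with the GC smooth (median -0.56). Mcm2, a subunit of the replication helicase (chromosome 6), had 19.6, 18.9, 18.6 and 20.8 CPM in the pools and 9.88, 11.1, 13.7 and 11.3 CPM in flushed single mice (1.70-fold lower, edgeR adjusted p = 0.0002). Aurkb, a mitotic kinase, was 3.01 to 3.85 CPM in the pools and 0.967 to 2.62 CPM (2.05-fold lower, edgeR adjusted p = 0.0022). Both were separated between the preparations in all 8 libraries, with flushed male 1 the highest of the flushed group. Blood-forming and other cells also divide, and the part of these cell types in the difference was not tested.

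Of 10 genes of basal epithelial cells 5 were lower and 1 higher (median -0.47), and 2 and 1 with the GC smooth (median -0.12). Krt5, a keratin of these stem cells, was 27.7 to 41.2 CPM in the pools and 15.2 to 22.4 CPM (2.01-fold lower, edgeR adjusted p = 0.00042). Trp63, their transcription factor and the one higher gene, was 14.8 to 18.2 CPM in the pools and 23.1 to 33.8 CPM (1.69-fold higher, edgeR adjusted p = 0.00057). Both passed with the GC smooth, at -0.65 and 0.51. Of 21 nasal gland genes 6 were lower and 1 higher, and 2 and 1 with the smooth. Pigr, which carries polymeric antibody across epithelium, had 623, 548, 689 and 485 CPM in the pools and 397, 368, 426 and 389.7 CPM in flushed single mice (1.48-fold lower, edgeR adjusted p = 0.0015). Obp2b, an odorant-binding protein, was 1.33-fold lower (edgeR adjusted p = 0.0023) with overlapping ranges of 36710 to 64900 and 29050 to 43610 CPM, and at -0.23 with the smooth (adjusted p = 0.08). Of 10 genes of sustentacular cells, which support the neurons, 3 were lower and 1 higher (median 0.06), and 1 each with the smooth (median 0.22). Sox2, a factor of supporting and basal cells, was among the lower ones, by 1.46-fold (edgeR adjusted p = 0.0032).

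Clock genes moved in both directions. In the molecular clock, Arntl and Clock form an activator that binds CACGTG boxes, and Cry and Per proteins inhibit it. Nr1d1, Dbp, Tef and Ciart are among its targets, and Nr1d1 represses Arntl. CACGTG, which is its own reverse complement, was sought in promoters (250 bases before to 50 after the start, RefSeq, GRCm38.p6). It was found in 5 of 14 clock genes matched, and in 7.15% of all 32851 promoters. A clock gene was counted if any of its promoters held the box, while the 7.15% is per promoter. The clock count and that share are therefore unlike measures. Ciart and Cry1, clock repressors that differed in opposite directions, both had the box. The stretches below show those matches in capitals, for Ciart at chr3:95882229-95882384 and for Cry1 at chr10:85185069-85185154, both on the minus strand.
Ciart: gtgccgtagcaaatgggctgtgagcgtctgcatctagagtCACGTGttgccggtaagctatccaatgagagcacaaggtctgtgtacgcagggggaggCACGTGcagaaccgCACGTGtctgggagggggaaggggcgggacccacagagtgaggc
Cry1: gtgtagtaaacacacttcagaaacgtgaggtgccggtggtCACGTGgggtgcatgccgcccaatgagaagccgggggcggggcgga
Ciart holds 3 matches in this stretch and Cry1 holds 1. A match is a string of letters and does not show binding in these tissues.

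Of 16 clock genes 8 were lower and 3 higher in flushed single mice, and 7 and 6 with the GC smooth. Both counts stayed at 8 and 3 without any single library. Nr1d1 had 58.9, 54.7, 41.7 and 40.2 CPM in the pools and 10.3, 9.17, 22.9 and 17.6 CPM in flushed single mice. Dbp, an output factor of the clock, had 179.5, 178, 129 and 162 CPM in the pools and 35.4, 30.0, 74.4 and 40.7 CPM in flushed single mice. Ciart had 12.1, 13.9, 10.9 and 15.3 CPM in the pools and 3.85, 3.06, 6.997 and 5.31 CPM in flushed single mice. All 3 were separated in every library, by 3.40-fold (edgeR adjusted p = 1.9e-05), 3.71-fold and 2.79-fold (edgeR adjusted p = 4.8e-05 and 0.00025) lower levels, and flushed male 1 was the highest of the flushed group in each. Tef fell by 1.27-fold (edgeR adjusted p = 0.0015).

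Cry1 went the other way, from 19.4, 19.1, 20.9 and 18.8 CPM in the pools to 35.2, 31.7, 32.6 and 37.0 CPM. Clock had 87.1, 81.1, 83.7 and 77.8 CPM in the pools and 136, 141, 136 and 126 CPM in flushed single mice. Arntl had 3.62, 2.87, 4.92 and 2.76 CPM in the pools and 7.99, 9.68, 3.45 and 7.42 CPM in flushed single mice. Cry1 and Clock did not overlap between preparations, at 1.74-fold and 1.63-fold (edgeR adjusted p = 3.9e-05 and 2.7e-05). Arntl overlapped through flushed male 1 (1.97-fold higher, edgeR adjusted p = 0.011). With the GC smooth the differences were -1.42 for Nr1d1, -1.50 for Dbp, -1.32 for Ciart, 0.95 for Cry1, 0.27 for Clock and 1.01 for Arntl, all past the threshold. Dbp, Ciart and Arntl were chosen after their values were seen.

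**Figure D4:**
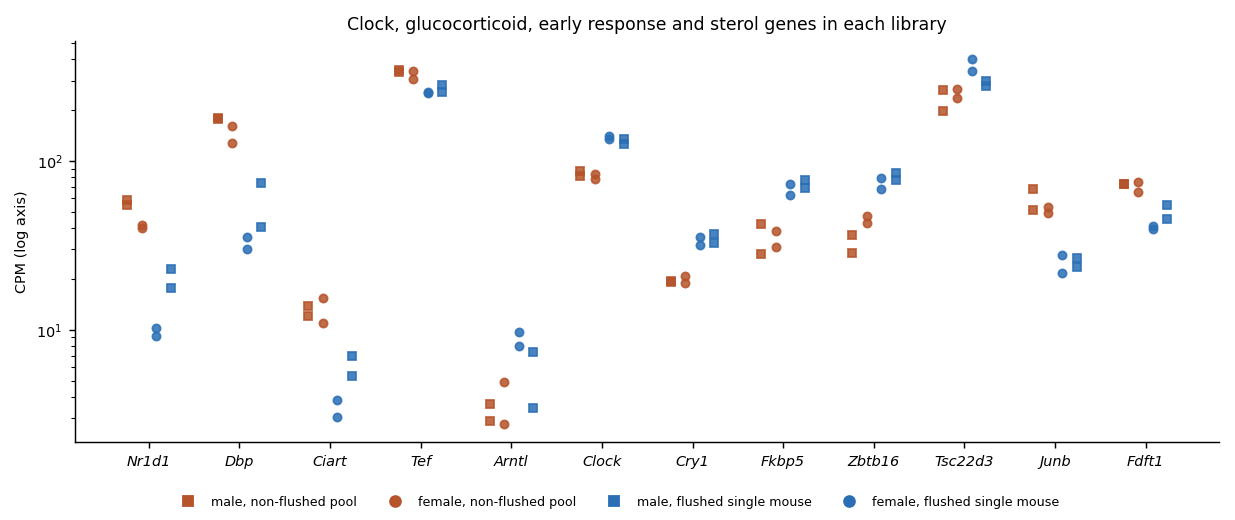
CPM (log axis) of clock, glucocorticoid, early response and sterol genes in each library. Nr1d1, Dbp and Ciart were lower in all 4 flushed libraries than in all 4 pools, and Clock, Cry1, Fkbp5 and Zbtb16 higher.

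Of 14 targets of the glucocorticoid receptor 4 were higher and 4 lower, not far from the 22.6 and 22.9% of all tested genes. With the GC smooth these were 4 and 3. Fkbp5, a chaperone that feeds back on the receptor, had 28.0, 42.3, 31.0 and 38.4 CPM in the pools and 73.5, 62.5, 69.6 and 77.1 CPM in flushed single mice. Zbtb16, a transcription factor it induces, had 28.7, 36.6, 43.0 and 47.0 CPM in the pools and 78.9, 68.2, 76.9 and 85.3 CPM in flushed single mice. Both were higher in every flushed library, by 2.02-fold and 2.01-fold (edgeR adjusted p = 0.00014 and 0.0002), and by 1.06 and 1.28 on the log2 scale with the GC smooth. Tsc22d3, another such target, was 1.36-fold higher (edgeR adjusted p = 0.0054). Angptl4, a lipase inhibitor that fasting and other signals also induce, was 2.07-fold lower (5.76 to 7.36 against 2.65 to 3.53 CPM, edgeR adjusted p = 0.0002). The list's median, -0.06, was 0.06 with library totals and 0.18 with the smooth, so the list has no single direction.

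Immediate early genes, which cells switch on within minutes of stimulation or dissection, were lower in 16 of 19 and higher in none (median -0.69), and in 8 with the GC smooth (median -0.41). Jun, a subunit of the AP-1 factor, had 87.5, 93.1, 94.2 and 114 CPM in the pools and 58.0, 58.6, 56.4 and 61.0 CPM in flushed single mice (1.66-fold lower, edgeR adjusted p = 6.5e-05). Ier3 was 1.79-fold lower (edgeR adjusted p = 0.00028). Jund, the most GC-rich of those named at 67.1%, was 1.45-fold lower (edgeR adjusted p = 0.0034) and at 0.06 with the smooth (adjusted p = 0.55).

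Genes of cholesterol synthesis were lower in 11 of 16 and higher in none, with and without the GC smooth (median -0.48, and -0.32 with it). Fdft1, the squalene synthase, had 73.4, 73.3, 65.9 and 75.3 CPM in the pools and 39.8, 41.5, 54.9 and 45.3 CPM in flushed single mice. It did not overlap between preparations and was 1.59-fold lower (edgeR adjusted p = 0.00014). Insig1, the sensor that restrains the pathway, was 1.51-fold lower (edgeR adjusted p = 0.00099) with overlap through flushed male 1. Of 16 genes of the unfolded protein response 11 were lower and 1 higher, and 8 and 2 with the smooth. Calr, a chaperone of the endoplasmic reticulum, was 598 to 658 CPM in the pools and 419.8 to 490.3 CPM (1.39-fold lower, edgeR adjusted p = 0.00011). Dnajb9, a co-chaperone of the same compartment, was 1.68-fold higher (edgeR adjusted p = 0.00011).

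Classes of RNA differed beside cell types. Of 63 genes of replication-dependent histones, whose messages end in a stem-loop in place of a polyA tail, 61 were lower and 1 higher (median -1.15), and 48 lower with the GC smooth (median -0.85). Reads mapped to several such genes were split between them, and single members are uncertain. With only genes of whole counts in every library, 3 were lower and 1 higher (median -0.80). Among those genes the histone share of counts was 0.0636% in the pools and 0.0589% in flushed single mice (exact permutation p = 0.4571). Hist1h1e, a linker histone (chromosome 13), had 83.3, 89.1, 70.7 and 77.3 CPM in the pools and 27.5, 33.0, 33.6 and 29.9 CPM in flushed single mice (2.58-fold lower, log2 -1.36, SE 0.08, edgeR adjusted p = 1.4e-05). Its exons hold 51.2% GC and its difference with the smooth was -1.21. The libraries were made from polyA-selected RNA, and the part of this step in the difference was not tested.

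Small structured RNAs, which also lack a polyA tail, took 6.55 ± 0.973% of counts in the pools (5.53 to 7.71%) and 3.66 ± 0.543% in flushed single mice (2.86 to 4.03%), with no overlap. Of 133 small nucleolar RNAs, which guide changes to ribosomal RNA, 58 were lower and 21 higher, and 45 and 10 with the GC smooth. Snora78, one of them, had 144, 324, 200.3 and 321 CPM in the pools and 66.8, 63.2, 71.4 and 44.0 CPM in flushed single mice (4.03-fold lower, edgeR adjusted p = 0.00018). Rn7s6, a signal recognition particle RNA, had 1384, 1905, 1254 and 1504 CPM in the pools and 347, 312, 430.4 and 292 CPM (4.37-fold lower, edgeR adjusted p = 1.4e-05). The share of counts also took in small nuclear RNAs, with 17 higher and 10 lower of 84 (median 0.29). With the smooth these were 10 and 8. Of 41 RNAs annotated as miscellaneous, 2 were higher and 14 lower (median 0.02), and 2 and 13 with the smooth. The kinds in this share thus had no single direction. The RNA classes in this and the next paragraph were chosen after their values were seen.

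Gene models of class TEC, sense intronic transcripts and nuclear long non-coding RNAs were more often higher than lower. Gene models still to be tested by experiment (class TEC) were higher in 657 and lower in 8 of 1184, and 193 and 18 with the GC smooth. They took 0.271 ± 0.0212% of counts in the pools and 0.460 ± 0.0263% in flushed single mice. Of 173 sense intronic transcripts 90 were higher and none lower, 31 and 1 with the smooth. Of 10 long non-coding RNAs retained in the nucleus 7 were higher and 1 lower, 5 and 0 with the smooth. Malat1, a nuclear speckle RNA, had 10530, 10190, 10930 and 10080 CPM in the pools and 14220, 14510, 13940 and 15740 CPM in flushed single mice (1.40-fold higher, edgeR adjusted p = 8.4e-05). Neat1, the scaffold of paraspeckles, was 671 to 816 CPM in the pools and 1096 to 2392 CPM, highest in flushed male 3 (2.13-fold higher, edgeR adjusted p = 0.0017, 1.06 with the smooth). It was named after its values were seen.

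Ribosomal and respiratory genes of the nucleus were lower. Of 83 cytosolic ribosomal protein genes 55 were lower and 3 higher, and 25 and 2 with the GC smooth. Rpl28, of the large subunit, was 61.3 to 79.5 CPM in the pools and 38.8 to 41.3 CPM (1.78-fold lower, edgeR adjusted p = 3.5e-05). Many ribosomal genes have processed pseudogenes, and such single values are uncertain. Of 86 nuclear genes of the respiratory complexes 50 were lower and 2 higher, and 33 and 0 with the smooth. Ndufb8, a subunit of complex I, had 53.2, 58.0, 49.7 and 54.7 CPM in the pools and 36.3, 36.04, 34.7 and 33.7 CPM in flushed single mice (1.53-fold lower, edgeR adjusted p = 5.8e-05, -0.59 with the smooth). Mitochondrially encoded genes were higher instead, 13 higher and 1 lower of 16 (median 0.70). This list is GC-poor (median 35.9%), and with the smooth 2 were higher and 2 lower (median -0.10). mt-Co3, a subunit of complex IV, was 355 to 443.8 CPM in the pools and 752 to 1054 CPM (2.23-fold higher, edgeR adjusted p = 3.2e-05), and it passed with the smooth (0.56, adjusted p = 0.005). The mitochondrial list takes in all 37 genes of that genome in the files, not only subunits of the complexes. Without the smooth, its tested genes were thus mostly higher and the nuclear genes of the complexes mostly lower.

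The preparation effect differed between genders in 10 genes (0.0485% of those tested). In 5 of them, red cell genes, the fall was larger in females: Alas2, the haem synthesis enzyme of red cells (X chromosome), had 28.1, 31.1, 26.7 and 24.5 CPM in the pools, 2.52 and 2.43 CPM in flushed females, and 10.7 and 9.81 CPM in flushed males. The interaction (male minus female difference) was 1.84 for Alas2 (edgeR adjusted p = 0.0063) and 2.13 to 2.39 for the 4 globin genes (edgeR adjusted p from 0.00034 to 0.00064). Ighm, the heavy chain of IgM, had 18.3, 16.8, 20.8 and 16.8 CPM in the pools, 15.4 and 11.95 CPM in flushed females, and 49.7 and 46.4 CPM in flushed males (interaction 1.91, edgeR adjusted p = 0.014). Flushed males were thus above the other 6 libraries.

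The other 4 genes encode secreted proteins of glands and airway epithelium and went the opposite way. Chil4, a chitinase-like protein, had 2.03, 0.919, 3.47 and 1.46 CPM in the pools, 26.8 and 25.3 CPM in flushed females, and 0.515 and 0.270 CPM in flushed males (interaction -5.28, edgeR adjusted p = 0.044). Tff2, a trefoil factor of mucus, had 167.5, 126, 109.9 and 72.0 CPM in the pools, 153 and 282 CPM in flushed females, and 34.0 and 43.9 CPM in flushed males (interaction -3.17, edgeR adjusted p = 0.049). Sbp, the spermine-binding protein, and its neighbour Sbpl had interactions of -3.77 and -3.93 (edgeR adjusted p = 0.023 and 0.014). Sbpl was 247 to 998.7 CPM in the pools, 297 and 369.8 CPM in flushed females and 44.9 and 59.3 CPM in flushed males. Each group in these tests held 2 libraries, and the count ranged from 4 to 18 with 1 library left out.

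**Figure D5:**
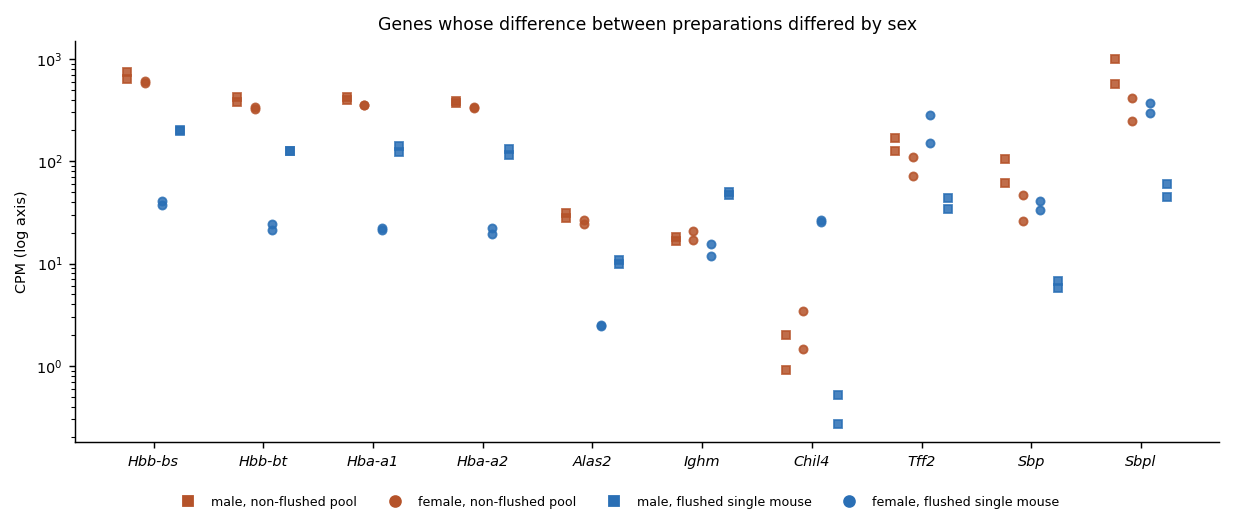
CPM (log axis) in each library of the 10 genes whose preparation effect differed between genders. Red cell genes were lowest in flushed females, Ighm was highest in flushed males, and Chil4, Sbp, Sbpl and Tff2 were lowest in flushed males.

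Spread among libraries was not larger for single mice over all genes. On the scale of log2(CPM + 0.5), the median SD within groups was 0.127 in the pools and 0.110 in flushed single mice over 17870 genes whose mean count was at least 20, and 43.6% of genes had the larger SD in flushed single mice. Fibroblast, matrix and bone genes went the other way. Of 16 fibroblast and matrix genes 15 had the larger spread in flushed single mice (median SD 0.172 against 0.066), and of 14 bone genes 13 did (0.234 against 0.082). Related lists were less one-sided: 30 of 44 collagen genes did, 8 of 13 cartilage genes, and 6 of 14 genes of smooth muscle and pericytes. Of 10 osteoclast genes 4 did, with a smaller median SD in flushed single mice (0.115 against 0.204). All 14 genes of ciliated respiratory cells did (0.429 against 0.290), while 3 of 13 vomeronasal neuron genes did (0.110 against 0.162). No test was made of these spreads, which rest on 4 libraries a preparation.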

How the data were processed

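PolyA-selected RNA of 8 vomeronasal tissue libraries was sequenced as stranded single-end reads of 100 nucleotides, per the labels' protocols. The submitters' processing notes name STAR 2.7.1a, GRCm38 (mm10) and featureCounts 1.6.5. Values deposited by the authors were expected counts without normalization, in which multi-mapped reads were split as fractions. Exons were counted on the reverse strand, per the file headers, at any mapping quality, without reads on more than 1 gene, with an Ensembl GRCm38 annotation that the authors had modified. Exon lengths in bases were deposited beside the counts.

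Rounded counts entered edgeR 4.0.16 (R 4.3.3; quasi-likelihood, TMM, filterByExpr on 4 groups, gender and preparation as terms, Benjamini-Hochberg threshold 0.05). Genes without a name held 0.0239 to 0.037% of counts. The interaction was tested in a further fit. Symbols, exonic GC content and coordinates came from GENCODE M21 (GRCm38), and promoters from RefSeq. The GC or length smooth was an mgcv 1.9.3 fit of basis size 6 of each library's log ratio to the mean library, used as an offset. Shares of counts were compared by exact two-sided permutation over 70 assignments. Alternatives were DESeq2 1.42.0, limma-voom 3.58.1, other scalings, filters and smooths, each gender, and leaving out each library.

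On simulated counts for the preparation comparison with 20601 genes, 34 of 50 genes changed by 1.5-fold and all 50 changed by 2-fold were recovered. The changed genes were drawn from those with a mean count of at least 20. All genes had the same dispersion (0.01509), and no GC shift was built in. Recovery under the spread and GC shift of the real libraries, or at lower counts, was not tested. P-values measure the spread between 4 libraries a preparation, whose depth is given in the report. Reads carry no molecular identifiers.

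The members, the 67 gene lists and the tests were chosen with earlier results of these data known. Genes named are the 12 largest changes in each direction (mean log2 CPM at least 3, no overlap and at most 3 per class), the 3 smallest p and 2 highest RPKM of each list, and all interaction genes, of which a smaller set was used. Exceptions are marked where they occur.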

Additional observations from a re-analysis of the deposited data

Results flagged for a closer look

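A library was singled out where its distance to the nearest other library of its preparation exceeded Dixon's critical share of the range of the 4. The share of the range is given for each. Of 308 groups of 4 examined, 20 met this (6.49%), and chance gives about 1 in 20.

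Female pool 1 was the high pool for antibody and lymphoid genes. The share was 0.936 for Igkc (41.4 CPM, the other pools at most 4.97), 0.929 for Jchain, 0.938 and 0.919 for the summed immunoglobulin constant and variable genes, and 0.963 and 0.936 for their shares of counts. It was also the high pool for summed T and natural killer cell genes (0.857, 29.4 CPM against at most 16.4), Camp (0.858) and Trp63 (0.954).

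Male pool 1 was the high pool for Krt10 (0.978) and the summed cornified epithelium genes (0.983, 222 CPM against at most 6.34). Flushed male 1 was the high flushed library for S100a9 (0.905, 67.8 CPM against at most 19.4), Lcn2 (0.878), Pdgfrb (0.875) and Tef (0.846). Flushed female 2 was high for H2-Eb1 (0.89) and summed antigen presentation genes (0.853), and low for Ier3 (0.887). Flushed female 3 was high for Foxj1, the factor of ciliated cells (0.831, 67.8 CPM against at most 36.2). Flushed male 3 was low for the summed bone genes (0.898, 1281 CPM against at least 1658).

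The preparation effect differed between genders in 10 genes by edgeR's interaction test. The male minus female difference was 2.39 for Hba-a1, 2.373 for Hba-a2, 2.195 for Hbb-bt, 2.125 for Hbb-bs, 1.842 for Alas2 and 1.912 for Ighm. It was -5.283 for Chil4, -3.926 for Sbpl, -3.769 for Sbp and -3.172 for Tff2.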

How the results depend on the processing

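The count of genes that differed, 9377, was within 1.5 times of that value with DESeq2 (8346), limma-voom (9326), other scalings (7946 to 9380), no filter (9938), a mean CPM filter (8892), no gender term (9224), a length smooth (9176) and each library left out (7734 to 9047). It was 5533 in females alone, 5086 in males alone, 5288 among genes with whole counts, 4474 with the GC smooth, 4501 with GC and length smooths and 761 against a fold of 1.5. The interaction gave 28 genes with DESeq2 and 4 to 18 with 1 library left out. Of 26 shares and weighted means, 16 passed over all assignments (smallest adjusted p = 0.04643). Permuted within gender 0 passed, where the smallest p that 36 assignments allow is 0.05556, and 0 passed among genes with whole counts (smallest adjusted p = 0.05306). The median of the lowest GC bin, 0.505, was 0.618 with library totals, 0.558 with neuron scaling, 0.017 with the GC smooth, 0.014 with both smooths, and 0.482 to 0.542 with 1 library left out.

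Of 119 called genes chosen for the text, not all of them named in it, 97 kept direction and call with the GC smooth. Without each library in turn 113 kept their call. The 1 chosen gene that was not called was Omp. Values with the opposite sign under the GC smooth and under both smooths were Zfp280d -0.027 and -0.093, Csf1r 0.037 and 0.007, Cldn5 0.006 and 0.040, Omp 0.214 and 0.223, Snap25 -0.063 and -0.088, Aqp4 -0.075 and -0.086, Sox10 0.063 and 0.029, Jund 0.056 and 0.009, and Rplp1 0.114 and 0.286, with 0.012 for Rplp1 under the length smooth. Tubb3 was at 0.002 under both smooths together. A smooth removes what runs with GC or length by construction. Calls lost with 1 library left out (largest adjusted p) were those of Ppbp (0.14), Cd74 (0.063), Foxj1 (0.083), Krt10 (0.099), Hmgcs1 (0.12) and Rplp1 (0.08). No paired analysis was possible because the pools were numbered here in accession order, which names them without pairing them, and each pool holds 2 mice. At CPM values below 1, as for Cd8a in the pools, a level rests on few reads.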

Other observations

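Zinc finger genes of the KRAB and C2H2 classes, which mostly repress transposons and other genes, were higher in 162 and lower in 52 of 399, and in 62 and 13 with the GC smooth. Zfp52, from a cluster on chromosome 17, had 11.8, 9.16, 10.5 and 9.61 CPM in the pools and 28.0, 26.3, 27.6 and 29.3 CPM in flushed single mice (2.7-fold higher, edgeR adjusted p = 1.4e-05), and it passed with the smooth (0.93). Clustered protocadherins, which give neurons their surface identity, had 8 higher and 1 lower of 56, and 6 and 1 with the smooth. The H2-Mv genes, non-classical MHC genes of basal vomeronasal neurons, had 1 higher and none lower of 9, none in either direction with the smooth, with a median of -0.01 that was 0.10 with library totals. Of 12 olfactory sensory neuron genes 2 were higher and 1 lower, and 3 and 0 with the smooth.

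Slc12a2, the chloride importer of sensory neurons and glands, had 501.5, 463, 421 and 419.8 CPM in the pools and 662, 651, 669.8 and 722 CPM in flushed single mice (1.5-fold higher, edgeR adjusted p = 6.6e-05), and it passed with the smooth (0.25). Of 14 hypoxia targets 2 were higher and 6 lower, and 2 and 1 with the smooth. The count of lower ones was 2 without any one of male pool 2, female pool 2 or flushed female 3, 3 without either flushed female 2 or flushed male 1, and 1 with library totals. Kdm3a, a histone demethylase among them, was 56.0 to 64.6 CPM in the pools and 82.7 to 90.8 CPM in flushed single mice (1.42-fold higher, edgeR adjusted p = 0.00012). Heat shock genes were lower in 4 of 10 and in none with the smooth, and in 2 with library totals or without any one of male pool 2, female pool 2, flushed female 2, flushed female 3 or flushed male 1.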
